A study of Mus musculus with 8 samples.

Results

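The genes described here are 9 genes of heme synthesis, read in the thermogenic brown fat of mice. They were taken by exact symbol from the deposited table, which lists 24535 genes, and each of the 9 was found once. There are 7 enzymes, Alas1, Alad, Uros, Urod, Cpox, Ppox and Fech, and 2 mitochondrial membrane proteins of the pathway, Slc25a38 and Tmem14c. The set does not hold every enzyme of the pathway. Both groups were 129Sv/C57BL6j mice of 18 weeks, kept at 30 °C on chow, and their poly(A) RNA was sequenced. The 4 PATKO libraries (53, 57, 70 and 71) came from mice labelled as an adipose tissue knockout of PGRMC2, and the 4 WT libraries (55, 62, 64 and 65) from wild-type mice. The promoter that drives the deletion and the number of animals behind a library are not stated in the labels, so p-values measure only the spread between these libraries.

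Heme is iron held in a porphyrin ring, and it is the working group of cytochromes, globins and many other proteins. Its synthesis starts in the mitochondrion, where ALAS joins glycine to succinyl-CoA. It goes on in the cytosol from ALAD to UROD and returns to the mitochondrion for CPOX, PPOX and ferrochelatase, which inserts iron. ALAS1, the form made in most tissues, is the controlled step, and heme lowers its amount in liver cells. Brown fat is rich in mitochondria and so in heme-bearing cytochromes. The series title calls PGRMC2 a heme chaperone, and PATKO against WT asks whether transcripts of the enzymes that make heme differ when it is lost.

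The ratio of group means, PATKO over WT, lay between 0.971 for Tmem14c and 1.32 for Cpox. With the values as deposited, ferrochelatase Fech alone passed the test, 18.9% higher in PATKO. Alas1 averaged 150.6 ± 26.8 FPKM in PATKO and 149.1 ± 13.6 FPKM in WT (SD, n = 4 each). The other 7 genes did not pass either. FPKM counts the fragments of a gene per kilobase of its length and per unit of sequenced fragments of the library, so levels of different genes can be compared. The test was limma on log2(FPKM + 0.5) over the 12235 genes whose mean reached 0.5 FPKM, all 9 heme synthesis genes among them, with Benjamini-Hochberg adjustment and a threshold of 0.05.

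A shift of the whole table bears on each value below. The median log2 change of all tested genes, PATKO minus WT, was 0.17, and 13.5% of all tested genes were called (13.2% as higher in PATKO and 0.27% as lower). After median-of-ratios scaling, which divides each library by the median ratio of its genes to their geometric means, the median change was -0.00 and 0.123% of all tested genes were called (0.0817% as higher in PATKO and 0.0409% as lower). Pgrmc2, the targeted gene, was at 2.99 to 3.67 FPKM in PATKO and 35.5 to 41.5 FPKM in WT (log2 change -3.39, SE 0.08, limma adjusted p = 2.3e-08). The defining brown adipocyte markers Ucp1, Cidea, Prdm16 and Dio2 were above 0 in all 8 libraries. Their log2 changes were -0.48, 0.18, -0.02 and -0.42 as deposited, and none of them passed (limma adjusted p = 0.225 to 0.945). Scaled by median of ratios, they were -0.67, -0.02, -0.19 and -0.56 (limma adjusted p = 0.284 to 0.978). The full list held 12 brown adipocyte markers, of which 7 lay above 0 and 5 below as deposited (median 0.07). Of the 12, 1 was called higher and 0 lower. After the scaling 3 lay above 0 and 9 below (median -0.13), and 0 were called. Of all tested genes, 16.0% lay below 0 as deposited and 51.0% after the scaling. Of 20 skeletal muscle markers, 20 were called higher in PATKO as deposited and 0 after median-of-ratios scaling, though their median log2 change was 1.76 and 1.58 under these. Their summed level was 1612 to 6287 FPKM in PATKO, with PATKO 71 highest, against 575 to 1408 FPKM in WT. No read totals accompany the FPKM, so depth is unknown and counting intervals cannot be had. In whole tissue, fewer cells of a type and less RNA per cell cannot be told apart.

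Levels spanned a wide range along the pathway, and the order was nearly the same in every library. Tmem14c was highest with 194.8 to 232.0 FPKM over the 8 libraries, and Alas1 was the next with 126.9 to 189.1 FPKM. Fech (34.8 to 45.5 FPKM) and Urod (34 to 39.2 FPKM) followed, and these ranges overlap, with Fech above Urod in 6 of 8 libraries. Ppox (10.7 to 17.4 FPKM) and Alad (9.91 to 12.6 FPKM) also overlap in range, though Ppox was above Alad in 8 of 8 libraries. Slc25a38 (6.34 to 8.78 FPKM) and Uros (6.37 to 8.63 FPKM) could not be ordered, with each above the other in 4 libraries. Cpox was lowest with 2.10 to 3.28 FPKM. The ranges of all the other neighbours in this order were apart. Among tested genes, the mean of Tmem14c lay at percentile 98.3, that of Alas1 at 97.7 and that of Cpox at 28.5.

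**Figure D1:**
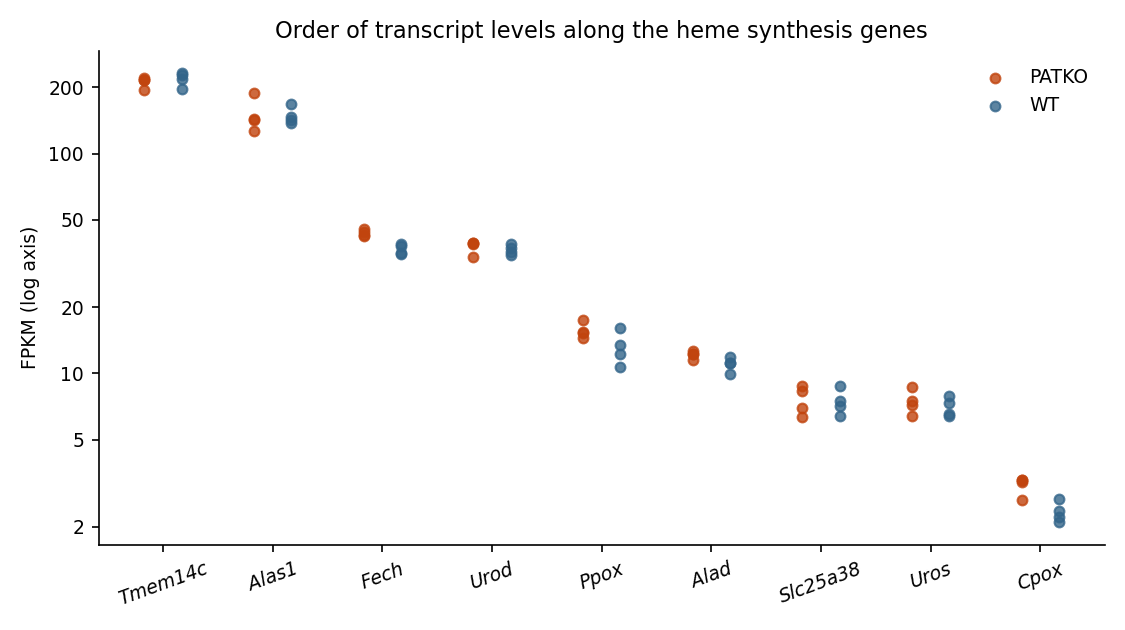
FPKM of the 9 heme synthesis genes on a log axis, ordered by their mean over 8 libraries, with 1 point per library (PATKO left, WT right of each gene). Tmem14c and Alas1 stand above 126 FPKM in all libraries, Cpox stays under 3.3 FPKM, and Fech is the gene whose PATKO and WT points do not overlap. As deposited, every PATKO library was above every WT library for 24.0% of tested genes. The Fech groups overlap after median-of-ratios scaling.

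The first step was measured by the carrier Slc25a38, which brings glycine into mitochondria, and by Alas1, which uses it. Alas1 (minus strand of chromosome 9, 106233455 to 106248654 on GRCm38) measured 144.1, 189.1, 126.9 and 142.2 FPKM in PATKO 53, 57, 70 and 71, and 147.2, 138.0, 168.7 and 142.4 FPKM in WT 55, 62, 64 and 65. PATKO held both the highest library, PATKO 57, and the lowest, PATKO 70, and the 4 WT values lay between them. The log2 change was 0.00 (SE 0.12, 95% confidence interval -0.26 to 0.27, limma adjusted p = 0.990; exact permutation p = 1.0, two-sided). The spread of Alas1 was the widest of the 9 genes in PATKO, with a coefficient of variation of 17.8% against 9.14% in WT. After median-of-ratios scaling the log2 change of Alas1 was -0.19 (95% interval -0.51 to 0.12, limma adjusted p = 0.518), so its sign depends on the scaling, and neither interval leaves out 0. Exons of Alas1 share 465 bases with the antisense gene 4930500F10Rik on the opposite strand, which has no deposited values. Slc25a38 (chromosome 9, 120110374 to 120124504, plus strand) was 6.96, 6.34, 8.34 and 8.72 FPKM in PATKO and 7.49, 6.39, 7.07 and 8.78 FPKM in WT. The groups of Slc25a38 cover almost the same range (log2 change 0.03, 95% interval -0.25 to 0.30, limma adjusted p = 0.889).

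The promoter of Alas1 is known in rat as a target of NRF1, a nuclear factor that drives genes of mitochondrial respiration, so motif windows are shown for the genes that hold its motif. RefSeq promoter windows on GRCm38.p6, from 250 bases before to 50 after a start site, matched 8 of the 9 genes with 11 windows, all but Fech. The NRF1 motif, taken as GCGCA and GCGC with any 1 base between them and searched on both strands, was found in 3 of these 11 windows, both of Alas1 and 1 of Uros, against 4.6% of all 32851 windows. The promoter windows of Alas1 overlap and are not independent, and by gene the motif was in 2 of 8. Both Alas1 sites below lie in the promoter window of the same start site. In Alas1 it stands at chr9:106247906-106247935 and chr9:106247935-106247964, and in Uros at chr7:133709323-133709352. The 30-base windows are printed as the minus strand, on which both genes lie, 5′ to 3′, with the matched letters in capitals. The letters of the first Alas1 window match the motif on both strands, and those of the second Alas1 window and of Uros match it on the plus strand.
Alas1, first window: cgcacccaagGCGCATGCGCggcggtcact
Alas1, second window: gcttcggcgcGCGCGTGCGCgcggcaggcc
Uros: cggtcacactGCGCCTGCGCgagtcccgcc
The first Alas1 match begins 195 bases before the more downstream of its start sites, and the Uros match begins 47 bases before its start site. The nuclear receptor element AGGTCA and the KLF letters CCACACCC, on both strands, were in 0 of the 11 windows, against 16.3% and 3.56% of all windows. A match is a run of letters in a window, not a bound site. The Nrf1 transcript, named here because of this motif and so chosen after its values were seen, averaged 2.65 ± 0.384 FPKM in PATKO and 2.89 ± 0.328 FPKM in WT (SD, n = 4 each; log2 change -0.11, 95% interval -0.36 to 0.15, limma adjusted p = 0.512).

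None of the 3 cytosolic enzymes passed the test. Alad, which joins 2 molecules of aminolevulinate into the first pyrrole (chromosome 4, 62509169 to 62519918, minus strand), was 11.5, 12.2, 12.6 and 12.3 FPKM in PATKO and 11.1, 9.91, 11.1 and 11.9 FPKM in WT. Of the PATKO libraries, 3 lay above every WT library, and PATKO 53 lay below WT 65 (log2 change 0.14, 95% interval -0.03 to 0.30, limma adjusted p = 0.199). Uros, which closes the tetrapyrrole ring (chromosome 7, 133686243 to 133710072, minus strand), was 7.21, 6.38, 7.45 and 8.63 FPKM in PATKO and 6.37, 7.87, 7.31 and 6.51 FPKM in WT. Its highest library was PATKO 71, and its lowest values were shared by PATKO 57 and WT 55 (log2 change 0.07, 95% interval -0.16 to 0.30, limma adjusted p = 0.627). Urod, which removes carboxyl groups from uroporphyrinogen (chromosome 4, 116989965 to 116994413, minus strand), was 39.0, 34, 39.2 and 38.8 FPKM in PATKO and 38.7, 35.8, 37.1 and 34.7 FPKM in WT. PATKO 57 held the lowest Urod value of all 8 libraries, and the other 3 PATKO libraries held the 3 highest (log2 change 0.04, 95% interval -0.11 to 0.20, limma adjusted p = 0.663). After median-of-ratios scaling the log2 changes were -0.05 for Alad, -0.11 for Uros and -0.15 for Urod, so the sign of all 3 depends on the scaling, and the adjusted p-values of that fit were 0.739, 0.672 and 0.300.

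**Figure D2:**
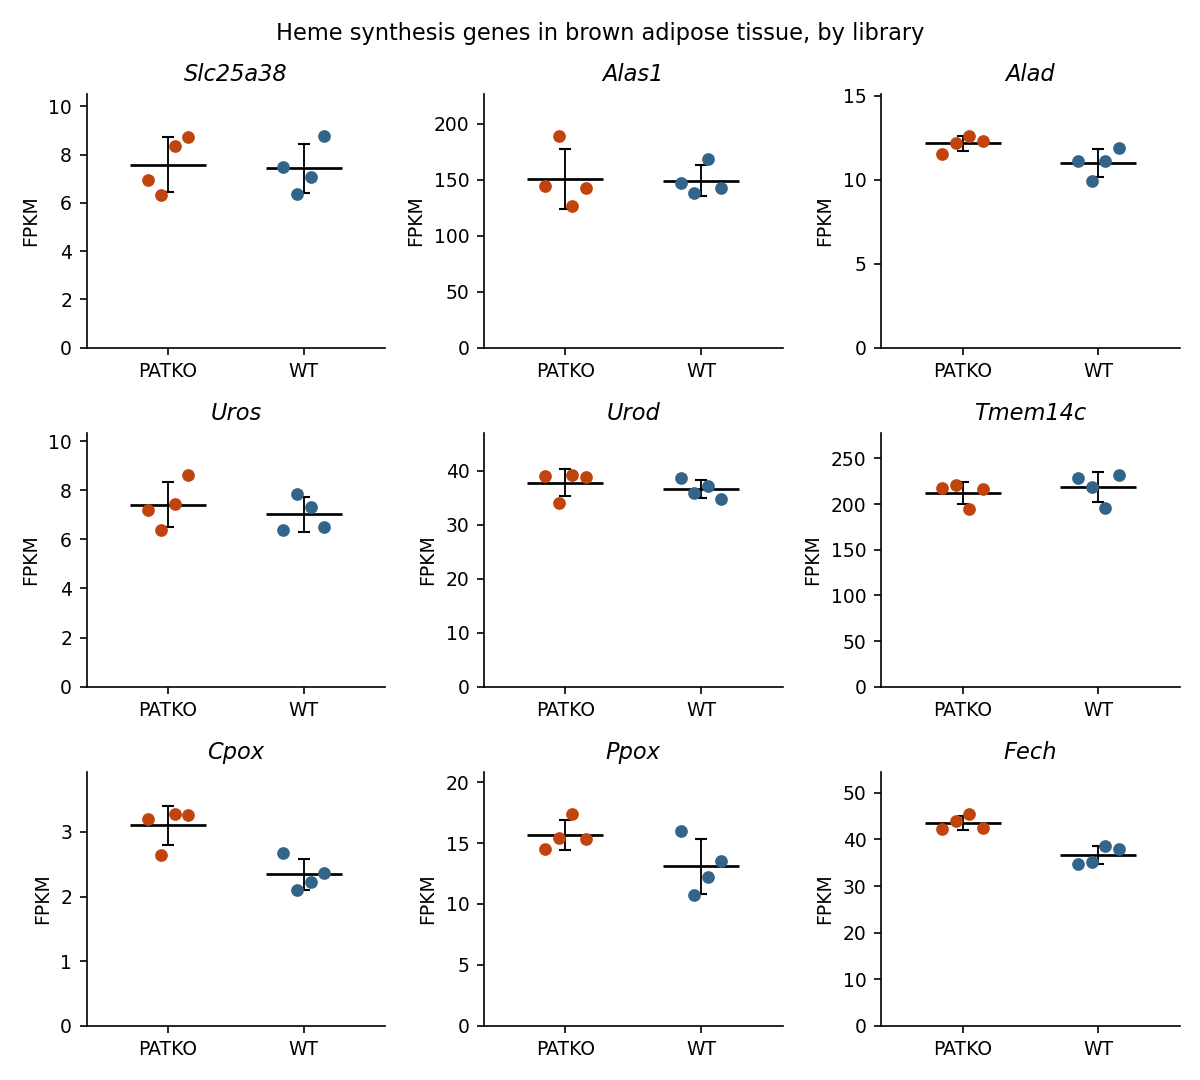
FPKM of each of the 9 heme synthesis genes in the 4 PATKO and 4 WT libraries, in pathway order, with the mean as a line and the SD as error bars on axes that start at 0. The PATKO points of Fech (42.2 to 45.5 FPKM) all lie above its WT points (34.8 to 38.7 FPKM), as for 24.0% of tested genes as deposited. The groups overlap in the other 8 panels.

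Tmem14c (chromosome 13, 41016292 to 41022586, plus strand) is needed in mouse erythroid cells to bring protoporphyrinogen into the mitochondrial matrix. It was 217.1, 221.4, 194.8 and 216.7 FPKM in PATKO and 228.8, 218.6, 195.7 and 232.0 FPKM in WT. The lowest value of each group, PATKO 70 and WT 64, was nearly the same, and the WT libraries 55 and 65 were above all PATKO libraries. It was the 1 gene of the 9 with a log2 change below 0 (-0.04, 95% interval -0.21 to 0.12, limma adjusted p = 0.705), where 16.0% of all tested genes lay below 0. After median-of-ratios scaling Tmem14c was 169.3 to 211.0 scaled FPKM in PATKO and 216.2 to 241.6 scaled FPKM in WT, with no overlap. That difference was -0.24 on the log2 scale (95% interval -0.43 to -0.04, exact permutation p = 0.0286, two-sided, which is the floor for 70 assignments), and it did not pass over all genes (limma adjusted p = 0.217). Every PATKO library was below every WT library for 4.43% of tested genes after this scaling.

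With FPKM as deposited, the last 3 enzymes, which work at or in the mitochondrion, had the larger log2 changes of the 9 genes. After median-of-ratios scaling this no longer held, as Tmem14c (-0.24), Alas1 (-0.19) and Slc25a38 (-0.16) had larger changes than Ppox (0.07) and Fech (0.05). Fech, which inserts iron to make heme (chromosome 18, 64452914 to 64490251, minus strand), was 42.2, 43.9, 45.5 and 42.4 FPKM in PATKO and 34.8, 35.1, 38.7 and 37.9 FPKM in WT. All PATKO libraries were above all WT libraries, as was so for 24.0% of tested genes. The log2 change was 0.25 (SE 0.06, 95% interval 0.11 to 0.39, limma adjusted p = 0.0369; exact permutation p = 0.0286, two-sided). Fech was the 1 of 9 genes called, beside 13.5% of all tested genes, and its change lay at percentile 68.4 of all changes. After median-of-ratios scaling the Fech values were 39.5 to 41.9 scaled FPKM in PATKO and 36 to 42.7 scaled FPKM in WT, with overlap, where 5.64% of tested genes had every PATKO library above every WT library. The log2 change was then 0.05 (limma adjusted p = 0.733). With any 1 library left out the call was lost as well, at log2 changes of 0.22 to 0.27 and adjusted p-values of 0.0567 to 0.0825.

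Skeletal muscle markers moved with the genotype, so their values stand beside those of the 9 genes. The mean log2 level of the markers was 5.43 to 7.34 in PATKO and 3.98 to 5.18 in WT, with no overlap, so muscle RNA and genotype cannot be told apart in these libraries. With this level as a covariate, the log2 change was 0.26 for Fech, 0.17 for Cpox, 0.17 for Ppox, 0.22 for Alas1 and 0.04 for Alad. It was -0.40 for Slc25a38, -0.12 for Tmem14c, -0.08 for Uros and -0.01 for Urod. None of the 9 passed in that fit (limma adjusted p = 0.460 to 0.980), which called only 2 of all 12235 tested genes.

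Cpox, which makes protoporphyrinogen (chromosome 16, 58670292 to 58717636, plus strand), was 3.20, 2.65, 3.28 and 3.27 FPKM in PATKO and 2.67, 2.10, 2.23 and 2.37 FPKM in WT. PATKO 57 was just under WT 55, and the other PATKO libraries were above all WT libraries. Its log2 change of 0.34 was the largest of the 9 genes and missed the threshold (SE 0.10, 95% interval 0.11 to 0.57, limma adjusted p = 0.0531; exact permutation p = 0.0571, two-sided). Without WT 55 the adjusted p of Cpox was 0.0464 and without PATKO 57 it was 0.0479, while without any other single library it was 0.0879 to 0.122. After median-of-ratios scaling the change was 0.17 (limma adjusted p = 0.353). Exons of Cpox share 204 bases with Gpr15 on the opposite strand, and Gpr15, chosen after its values were seen, was 0 to 0.272 FPKM in PATKO and 0.052 to 0.265 FPKM in WT.

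Ppox, which oxidises protoporphyrinogen to protoporphyrin (chromosome 1, 171275990 to 171281186, minus strand), was 14.5, 15.4, 17.4 and 15.3 FPKM in PATKO and 16.0, 10.7, 12.2 and 13.5 FPKM in WT. WT 55 lay within the PATKO range, and the other WT libraries were below it (log2 change 0.26, 95% interval 0.00 to 0.52, limma adjusted p = 0.138). Without WT 55 the change was 0.36 and passed (limma adjusted p = 0.0478), and after median-of-ratios scaling it was 0.07 (limma adjusted p = 0.773). Exons of Ppox share 791 bases with B4galt3 on the opposite strand. B4galt3, chosen after its values were seen, averaged 7.36 ± 0.780 FPKM in PATKO and 5.77 ± 1.15 FPKM in WT (SD, n = 4 each). The library kit keeps strand, but whether the counting did is not stated in the labels, so reads of the pair may not be told apart. The same holds for Alas1 and Cpox with the genes that share their exon bases.

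Read as a group, 8 of the 9 genes had a log2 change above 0 with the values as deposited, and their median was 0.07, under the 0.17 of all tested genes. At an unadjusted p under 0.05, 3 were higher (Cpox, Ppox and Fech), beside 34.6% of all tested genes, and 0 were lower, beside 1.39%. After median-of-ratios scaling 3 lay above 0 and 6 below, with a median of -0.11, where 51.0% of tested genes lay below 0. Then 0 were higher at an unadjusted p under 0.05, beside 9.11% of all tested genes, 1 was lower (Tmem14c), beside 8.25%, and limma called 0 of 9. Cpox, Ppox and Fech were the genes above the median change of all tested genes under both scalings, and the 6 others were below it. In the authors' deposited table, which does not name its test, the adjusted p-values of the 9 genes ran from 0.144 for Tmem14c to 0.945 for Ppox, with 0.863 for Fech.

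**Figure D3:**
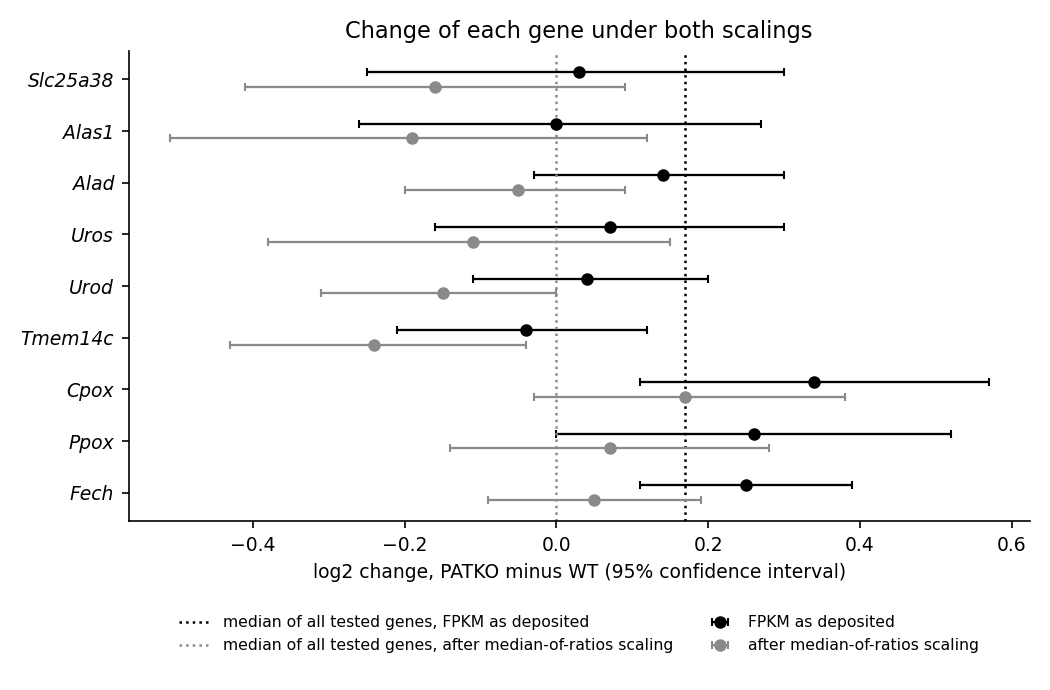
Log2 change of each gene, PATKO minus WT, with its 95% confidence interval from limma, for FPKM as deposited (black) and after median-of-ratios scaling (grey). Dotted lines mark the median change of all 12235 tested genes (0.17 and -0.00), and Cpox, Ppox and Fech lie right of the line of their own scaling.

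A ratio of 2 genes within a library does not depend on the scaling of that library. The ratio of Fech to Alas1, the last enzyme to the first, was 0.293, 0.232, 0.358 and 0.298 in PATKO 53, 57, 70 and 71, and 0.236, 0.254, 0.229 and 0.266 in WT 55, 62, 64 and 65. It was above all WT values in 3 of 4 PATKO libraries, and PATKO 57, where Alas1 was highest, lay among the WT values. The log2 difference was 0.25 (two-sided exact permutation p = 0.114), which did not pass. With 1 library left out it ranged from 0.15 without PATKO 70 (exact permutation p = 0.257) to 0.36 without PATKO 57 (exact permutation p = 0.0286), and p was 0.143 to 0.257 in the 7 cases other than PATKO 57.

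Libraries of 1 group did not move all 9 genes alike. PATKO 57 was highest in Alas1 (0.34 above that gene's mean on the log2 scale) and below the mean in Uros, Urod, Cpox and Slc25a38 (by 0.02 to 0.22). PATKO 70 was the reverse in part, lowest in Alas1 (0.23 below the mean) and highest in Alad, Urod, Cpox, Ppox and Fech. In WT 62, 7 of the 9 genes lay below their own mean. The summed level of the 9 genes was 455.5 to 531.3 FPKM in PATKO and 464.4 to 493.2 FPKM in WT, so the WT range lay within the PATKO range. After median-of-ratios scaling the sum was 396.0 to 506.4 in PATKO and 509.7 to 530.4 in WT, with no overlap, and Tmem14c and Alas1 make up most of it.

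**Figure D4:**
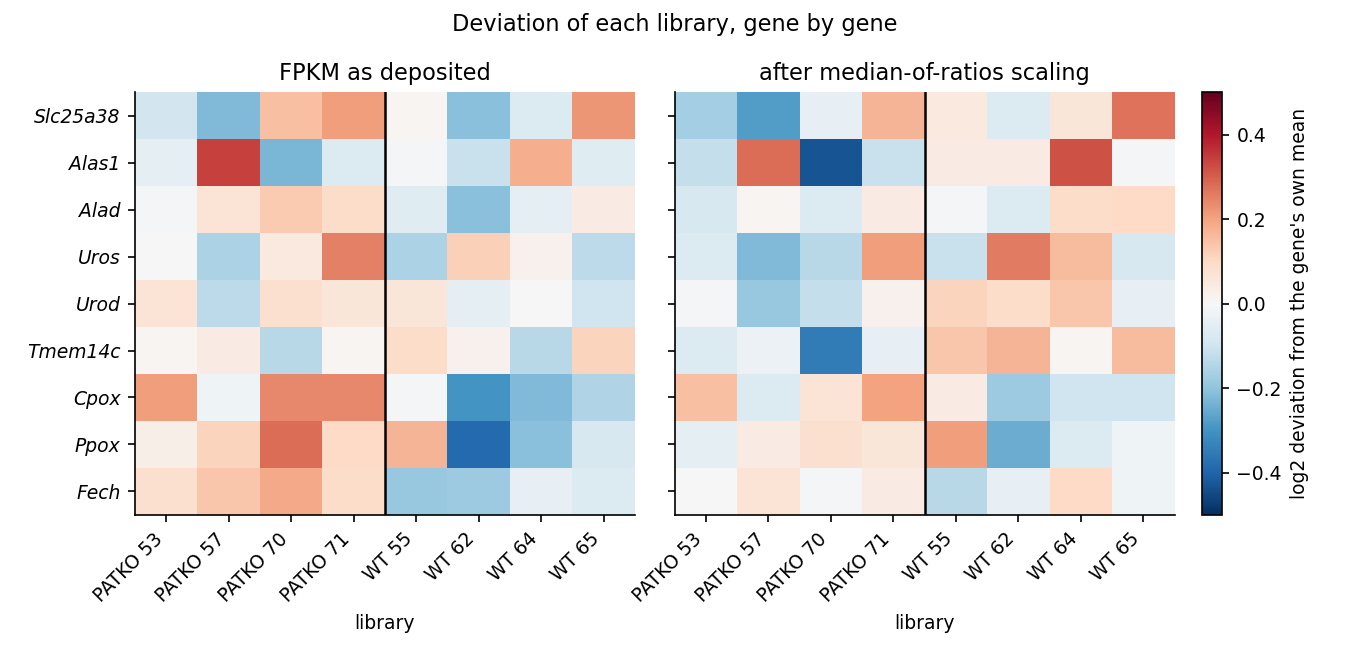
Log2 deviation of each library from the gene's mean over 8 libraries, for FPKM as deposited (left) and after median-of-ratios scaling (right), with PATKO columns left of the black line. The row of Fech is above its mean in the 4 PATKO columns as deposited (0.08 to 0.19) and near 0 there after scaling (-0.01 to 0.07).

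The profiles most like that of Alas1 over the 8 libraries were those of Ltv1, Timm44 and Megf9, with root mean square differences of 0.067, 0.080 and 0.082 between centred log2 values. The median of this measure over all 6783 genes compared was 0.24, and the profile of Alas1 itself had a root mean square of 0.17. Like Alas1, all 3 were highest in PATKO 57. For Fech the closest were Atl3, Acbd5 and Tm2d1 with 0.026, 0.028 and 0.031, beside a median of 0.14 over all genes compared. The profile of Fech itself had a root mean square of 0.14. Likeness was measured on FPKM as deposited, so the shift of the whole table is part of these profiles.

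Among 17 other genes of heme synthesis, 2 were called higher, 1 lower and 14 did not pass, with a median log2 change of 0.12, beside 13.2% of all tested genes called higher and 0.27% lower. The gene called lower was Pgrmc2 itself. After median-of-ratios scaling 5 of the 17 lay above 0 and 12 below (median -0.07), where 51.0% of all tested genes lay below 0. Slc25a28, a mitochondrial iron importer, was 22.3, 20.4, 27.6 and 22.4 FPKM in PATKO and 18.6, 13.6, 17.1 and 14.1 FPKM in WT. Its PATKO libraries were all above its WT libraries, as for 24.0% of tested genes (log2 change 0.54, SE 0.12, limma adjusted p = 0.0302). Clpx, the unfolding subunit of a mitochondrial protease that acts on ALAS, averaged 47.3 ± 1.54 FPKM in PATKO and 39.8 ± 3.26 FPKM in WT (SD, n = 4 each; log2 change 0.25, limma adjusted p = 0.0449). Under median-of-ratios scaling the limma adjusted p was 0.167 for Slc25a28 and 0.796 for Clpx, so neither call held. The call of Slc25a28 was also lost without PATKO 53, PATKO 70, WT 62, WT 64 or WT 65 (limma adjusted p = 0.0586 to 0.0694), and that of Clpx without any 1 library (0.0626 to 0.103). Alas2, the form of the first enzyme made in red cell precursors, was 3.07, 1.89, 2.50 and 2.96 FPKM in PATKO and 4.85, 3.34, 3.23 and 3.75 FPKM in WT. Every PATKO library was below every WT library in Alas2, as for 0.597% of tested genes, but the gene did not pass (log2 change -0.47, 95% interval -0.82 to -0.12, limma adjusted p = 0.0689). The same order held after median-of-ratios scaling, as for 4.43% of tested genes. Alas2 again did not pass there (log2 change -0.64, limma adjusted p = 0.127). Of 15 erythroid markers, Alas2 included, 7 stayed under 0.5 FPKM in all 8 libraries, the red cell membrane gene Slc4a1 among them. Of the 8 tested, 7 had a log2 change below 0 as deposited (median -0.38), beside 16.0% of all tested genes. Scaled by median of ratios, 8 lay below 0 (median -0.58), beside 51.0%. Limma called 0 of them under either scaling. At an unadjusted limma p under 0.05, 3 of the 8 were lower as deposited and 7 after the scaling. These stand beside 1.39% and 8.25% of all tested genes. None was higher at that threshold, beside 34.6% and 9.11% of all tested genes. The sum of the 15 markers was 419.9 to 606.7 FPKM in PATKO and 555.1 to 869.9 FPKM in WT, mostly from globin genes, whose near-identical copies make single values uncertain. The part of red cell RNA in the Alas2 values was not tested.

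Substrate supply and heme use were read from 2 further lists, beside the same shares of all tested genes (13.2% called higher and 0.27% lower). The median log2 change of all tested genes was 0.17 as deposited. Of 11 enzymes that supply succinyl-CoA or glycine, 1 was called higher, 0 lower and 10 did not pass, with a median log2 change of 0.01. The called gene was Mut, methylmalonyl-CoA mutase, with 76.3 ± 8.43 FPKM in PATKO and 56.2 ± 8.87 FPKM in WT (SD, n = 4 each; log2 change 0.44, limma adjusted p = 0.0406). Of 9 mitochondrial heme users and heme-tailoring genes, 0 were called higher, 1 lower and 8 did not pass, with a median of -0.00. The gene called lower was Cycs, cytochrome c, with 4.72 ± 0.562 FPKM in PATKO and 6.49 ± 0.958 FPKM in WT (SD, n = 4 each; log2 change -0.42, limma adjusted p = 0.0493). Cycs has near-identical pseudogene copies, so its values are uncertain. After median-of-ratios scaling 2 of the suppliers lay above 0 and 9 below (median -0.19). Of the heme users 0 lay above 0 and 9 below (median -0.20), where 51.0% of all tested genes lay below 0. At an unadjusted limma p under 0.05, 4 suppliers and 2 heme users were then lower and 0 higher, beside 8.25% and 9.11% of all tested genes. Limma called 0 in both lists there, with an adjusted p of 0.354 for Mut and 0.129 for Cycs. Both calls held without WT 55 and were lost without any other 1 library (limma adjusted p = 0.0517 to 0.0961 for Mut and 0.0566 to 0.116 for Cycs). Cox15, which makes heme A, was at 7.65 ± 0.576 FPKM in PATKO and 7.44 ± 0.204 FPKM in WT (SD, n = 4 each).

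Of 10 tested factors known to control Alas1, limma called 0. At an unadjusted p under 0.05 the deposited values gave 4 higher and 0 lower, beside 34.6% and 1.39% of all tested genes, and the scaled ones 0 and 1, beside 9.11% and 8.25%. The coactivator Ppargc1a, which raises Alas1 in mouse liver, was 9.50, 9.75, 9.70 and 13.0 FPKM in PATKO and 9.34, 6.91, 6.63 and 8.22 FPKM in WT. Every PATKO library was above every WT library, as for 24.0% of tested genes, and PATKO 71 was well above the rest. The gene did not pass (log2 change 0.41, 95% interval 0.12 to 0.70, limma adjusted p = 0.0616). After median-of-ratios scaling its groups overlapped (log2 change 0.22, limma adjusted p = 0.415). Foxo1 averaged 8.92 ± 0.500 FPKM in PATKO and 7.62 ± 0.336 FPKM in WT (SD, n = 4 each; limma adjusted p = 0.0666). With the muscle level as a covariate the log2 change was 0.00 for Ppargc1a and 0.09 for Foxo1. Of 12 tested genes of heme degradation, export and uptake, limma called 0. At the same unadjusted threshold the deposited values gave 3 higher and 1 lower of the 12, and the scaled ones 0 and 2, to be read beside the same shares. Blvra, a biliverdin reductase, was the lower one, with 35.7 ± 4.37 FPKM in PATKO and 43.3 ± 4.23 FPKM in WT (SD, n = 4 each; log2 change -0.28, limma adjusted p = 0.0844). The heme carrier Slc48a1 averaged 44.1 ± 2.74 FPKM in PATKO and 37.6 ± 3.42 FPKM in WT (SD, n = 4 each; log2 change 0.23, limma adjusted p = 0.0765). Under median-of-ratios scaling the log2 change was -0.47 for Blvra and 0.03 for Slc48a1 (limma adjusted p = 0.137 and 0.859). With the muscle covariate the log2 change was -0.15 for Blvra and 0.17 for Slc48a1. In that fit it was 0.57 for Slc25a28, 0.36 for Clpx, 0.72 for Mut, -0.82 for Alas2 and -0.56 for Cycs. None of these genes passed there (limma adjusted p = 0.449 to 0.730). Muscle level and genotype do not overlap, so that fit cannot tell them apart.

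**Figure D5:**
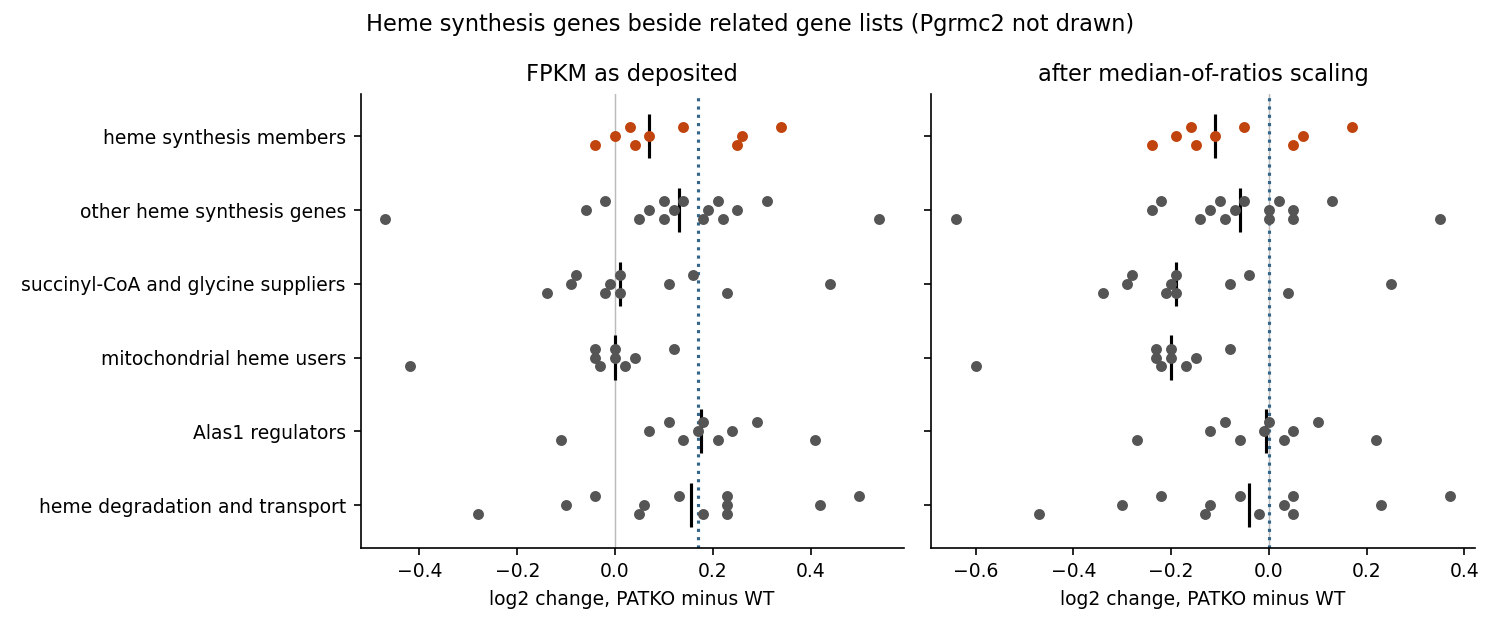
Log2 changes, PATKO minus WT, of the 9 heme synthesis genes (coloured) and of the genes in 5 related lists, 1 point per gene with the list median as a bar, as deposited (left) and after median-of-ratios scaling (right). The dotted line is the median of all tested genes, and the heme synthesis median (0.07 and -0.11) is left of it in both panels.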

How the data were processed

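Poly(A) RNA of 8 brown adipose tissue libraries was sequenced after a stranded mRNA preparation from 0.5 µg of total RNA, per the labels' protocols. The build was mm10, per the submitters' processing notes, while aligner, counting tool and annotation are not stated there or in the labels. The authors deposited FPKM per library and as group means, with a fold and an adjusted p-value of unnamed test, per the file headers. All other values were computed here from the per-library FPKM.

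FPKM are not counts, so limma 3.58.1 (R 4.3.3; trend, two-sided) was run on log2(FPKM + 0.5). This scale understates changes of low genes. The 9 genes and all lists were chosen with earlier results of these data known. From each of the 5 comparison lists up to 4 genes with the smallest p could be named, and likeness was sought among genes of at least 5 FPKM. The alternatives were a pseudocount of 1 or 0.1, a minimum mean of 5 FPKM or none, 3 scalings, limma without trend or robust, a muscle covariate and leaving out each library. The fit was also run on simulated data with independent noise and no shift of whole libraries, so that run does not bear on the scaling. Positions are from GENCODE M21 on GRCm38, the assembly mm10 names. Motifs and figures used Python 3.11.15. Replicate numbers are not shared between groups.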

Additional observations from a re-analysis of the deposited data

Results flagged for a closer look

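In 78 groups of 4 libraries examined, 5 held a library far from the other 3 by Dixon's criterion. Chance meets this criterion in about 1 of 20 groups. The groups came from the 9 heme synthesis genes and the genes of smallest p in each comparison list. Defining cell type markers and the Fech to Alas1 ratio were also examined, and not all of these genes are named here. In PATKO, Urod was 34 FPKM in PATKO 57, against 38.8 to 39.2 FPKM in the other PATKO libraries. Cpox was 2.65 FPKM in the same library, against 3.20 to 3.28 FPKM in the others. The muscle actin gene Acta1 was 802.0 FPKM in PATKO 71 (218.9 to 288.9 FPKM in the other PATKO libraries), and Ppargc1a was 13.0 FPKM there (9.50 to 9.75 FPKM in the others). In WT, the uncoupling protein gene Ucp1 was 1305 FPKM in WT 64, against 521.5 to 583.4 FPKM in the other WT libraries, and WT 64 was also the WT library with the highest Alas1 and Fech.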

How the results depend on the processing

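Fech was called under 5 of 27 settings, the one reported included. The 9 heme synthesis genes gave 1 call as reported, 0 without a filter on low values, under median-of-ratios, TPM or quantile scaling, without trend and with the muscle covariate, and 0 to 2 with a library left out (Cpox and Ppox without WT 55, Cpox without PATKO 57). All genes gave 1646 calls as reported. Their number was 299 without a filter, 15 after median-of-ratios scaling, 28 after TPM scaling, 18 after quantile normalization, 992 without trend, 2 with the muscle covariate, and 24 (without PATKO 53 or WT 64) to 1463 (without WT 55) with a library left out, with 1019 without PATKO 57, 124 without PATKO 70, 745 without PATKO 71, 145 without WT 62 and 625 without WT 65. After median-of-ratios scaling with a library left out it was 6 without PATKO 57, 7 without PATKO 70, 56 without WT 55 and 3 or 5 otherwise, and the heme synthesis genes gave 0. The 5 comparison lists together gave 5 calls as reported, 1 without a filter, under each of the 3 scalings and with the covariate, 2 without trend, and 1 to 5 with a library left out, or 1 each after median-of-ratios scaling. The log2 Fech to Alas1 difference was 0.15 to 0.36 with a library left out. The cause of these differences was not tested, beyond the fewer libraries or the larger number of genes tested. No paired analysis was possible because the groups share no replicate numbers. Depth is unknown, so the counting error of the low genes, Cpox among them, cannot be given.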

Other observations

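Cpox, Ppox and Fech, the last 3 enzymes, all lay above the median log2 change of all tested genes in 26 of the 27 settings, counting those of the 3 that were tested. The exception was median-of-ratios scaling without WT 62, where the log2 change of Ppox was -0.01. In 23 settings they were the only ones of the 9 above it. This grouping was seen in the values first, and it was not tested. The settings refit the same libraries, so they are not independent of each other.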
